A study of Mus musculus with 32 samples.

Results

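The response of mouse embryonic stem cells to hexamethylene bisacetamide (HMBA) was read from every array on which RNA of HMBA-treated cells was hybridised against RNA of untreated cells. These are 6 of the 18 two-colour arrays and 6 of the 32 arrays of the series. The cells were E14TG2a, an established feeder-independent mouse embryonic stem cell line. Treated cells received 3 mM HMBA and were taken at day 2, day 4 or day 6, with 2 arrays per day. On replicate 1 of each day the treated RNA carried the dye Cy3, and on replicate 2 it carried Cy5. The other two-colour arrays hold cells given 1% dimethyl sulfoxide (DMSO) or 0.1 µM retinoic acid (RA) for the same days, 6 arrays each, against the same untreated reference. On a further 14 single-colour arrays the same line had been transfected with an RNAi construct against Pou5f1 (4 arrays), one against Nanog (5 arrays) or the empty vector (5 arrays), and selected in 1 µg/ml puromycin for 3 days.

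HMBA is a small polar compound long known for driving erythroleukaemia cells towards haemoglobin-producing erythroid cells. It releases P-TEFb, the kinase that lets paused RNA polymerase II elongate, from the inhibitory 7SK complex, and it induces the 7SK-bound inhibitor HEXIM1, which was named after the compound. Embryonic stem cells are held undifferentiated by the transcription factors Oct4 (gene Pou5f1), Nanog and Sox2 together with LIF signalling. When Pou5f1 is lost they take on trophectoderm, the outer lineage of the blastocyst that forms the placenta. Primitive endoderm, which lays down the basement membrane of the yolk sac, is the other extraembryonic lineage they can approach.

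Each value below is the log ratio of treated over untreated cells, taken as log2, so that 1 is a doubling. Values of a day are given with the Cy3 array first. The labels do not say whether the dye-swapped arrays of a day come from separate cultures, so p-values measure the spread between arrays, which may be technical. The untreated reference is shared by all two-colour arrays, and its own spread is not part of any p-value. The 6 HMBA arrays held between 15750 and 19066 values of 21106 probes, each with a median of 0. One DMSO array, day 4 replicate 2, stood apart with 11257 values (53.3% of probes). Dye orientation moved the ratios of many probes, and 11124 probes had a called dye effect. The median size of the dye effect, the full difference between the 2 orientations, was 0.38 on the log2 scale. That of the HMBA mean, a shift from 0, was 0.21. These are unlike measures and are not ranked. HMBA arrays of opposite dye on the same day correlated across probes at r = 0.503 to 0.612, and arrays of the same dye on different days at 0.636 to 0.888; probes are not independent and all arrays share the reference. Every fit therefore carried a dye term. A gene is said to have risen or fallen where limma's adjusted p was under 0.05. The ratios carry no level for untreated cells. In the vector-transfected cells of the same line, the stem cell markers Pou5f1, Nanog, Sox2 and Zfp42 had mean log2 levels of 11.42, 11.09, 11.48 and 11.69, and the lineage markers Gata3, Cdx2 and Gata4 had levels of 4.03, 4.16 and 4.76. Probe sets differ in brightness, so these levels are not compared between genes. In these bulk samples, fewer cells of a type and less RNA per cell cannot be told apart.

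HMBA changed a large share of the measured genes. Over the 3 days together, 6361 of 12024 genes (52.9%) passed the test, 3297 higher (27.4%) and 3064 lower (25.5%). Most of these changes were small: 413 genes rose by at least 1 on the log2 scale (3.43%) and 283 fell by at least as much (2.35%). Of the 6013 called genes with values on all 6 arrays, 3276 (54.5%) had the same sign on each of them, or 29.9% of the 10942 genes with 6 values, and 607 of the 646 that changed by at least 1 did so (94%). By day, 23.9% of genes passed on day 2, 37.4% on day 4 and 37% on day 6. The days differed from each other for 1398 genes (11.6%).

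The genes with the largest mean rises over the 3 days, among those with the same sign on all 6 arrays, were led by Krt8, a keratin of simple epithelia and of trophectoderm. Its log2 ratios were 3.08 and 2.64 on day 2, 3.96 and 3.70 on day 4, and 3.90 and 3.89 on day 6. All 6 arrays were high from day 2 on, and the mean was 3.53 ± 0.08 (SE, n = 6 arrays; adjusted p = 4.3e-16, limma), an 11.5-fold rise. H19, an imprinted noncoding RNA abundant in extraembryonic tissue, climbed later, with 0.43 and 1.03 on day 2, 3.21 and 3.58 on day 4, and 4.74 and 5.01 on day 6. The 3 days did not overlap for H19, whose mean was 3.00 ± 0.10 (adjusted p = 1.7e-13, limma). The standard deviation of its 6 ratios was 1.895. Gata3, a zinc-finger factor of trophectoderm, was at 2.29 and 1.94 on day 2, 3.35 and 2.74 on day 4, and 3.16 and 2.92 on day 6. It was high at every time, with a mean of 2.73 ± 0.10 (6.65-fold, adjusted p = 5e-12, limma).

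The other 12 of the 15 largest rises belonged to genes of various kinds. Col1a2, a chain of type I collagen, was at 0.69 and 0.89 on day 2, 3.96 and 4.16 on day 4, and 3.50 and 3.63 on day 6. The day 2 arrays lay far below the other 4, and the mean was 2.80 ± 0.08 (adjusted p = 8.7e-14, limma). Col4a1, a chain of basement membrane collagen, rose by 2.52 ± 0.08 and Gsn, the actin-severing protein gelsolin, by 2.36 ± 0.08. Id2, an inhibitor of basic helix-loop-helix factors, was at 1.27 and 0.42 on day 2, 3.83 and 2.54 on day 4, and 3.89 and 2.50 on day 6. Its Cy3 arrays were above its Cy5 arrays on each day, and both orientations rose after day 2 (mean 2.41 ± 0.08). The others were Car4, a membrane-anchored carbonic anhydrase (2.84 ± 0.08), Cntn3, a contactin adhesion molecule (2.80 ± 0.13), Amotl2, an angiomotin family scaffold of the Hippo pathway (2.73 ± 0.10), the kinase Nuak1 (2.72 ± 0.09), Peg10, a retrotransposon-derived imprinted gene needed in placenta (2.69 ± 0.10), the keratin Krt19 (2.62 ± 0.08), the protease Prss23 (2.51 ± 0.10) and the tetraspanin Tspan9 (2.34 ± 0.09).

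The largest mean fall was that of Nr0b1, which encodes the orphan nuclear receptor Dax1 of undifferentiated stem cells. Its log2 ratios were -3.39 and -3.99 on day 2, -5.11 and -5.73 on day 4, and -3.77 and -4.57 on day 6. All 6 arrays were low from day 2, and the mean of -4.43 ± 0.07 is a 21.5-fold fall (adjusted p = 3.3e-16, limma). Trh, the thyrotropin-releasing hormone precursor, was at -1.27 and -0.98 on day 2, -5.22 and -4.78 on day 4, and -5.11 and -4.56 on day 6. Most of its fall lay between day 2 and day 4 (mean -3.65 ± 0.07, adjusted p = 4.9e-17, limma). Tet1, the 5-methylcytosine dioxygenase of stem cells, had the opposite course, with -3.72 and -3.62 on day 2, -3.28 and -3.13 on day 4, and -2.83 and -2.87 on day 6. It was lowest on day 2, and its mean was -3.24 ± 0.07 (adjusted p = 6.3e-16, limma).

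The other 12 of the 15 largest falls included genes known from stem cells and the germline. Tdgf1, the Nodal co-receptor Cripto, fell by 3.29 ± 0.08 on the log2 scale, Morc1, a germline chromatin ATPase, by 3.25 ± 0.07, and Zfp42, the stem cell marker Rex1, by 3.05 ± 0.08. Ooep, an oocyte protein, had a mean of -3.09 ± 0.07. Fbxo15, an F-box protein of stem cells, fell by 2.98 ± 0.07, the testis cytochrome c gene Cyct by 2.88 ± 0.08 and Klf4, a Kruppel-like factor of naive stem cells, by 2.50 ± 0.11. A second probe of Cyct also fell, with a mean of -1.46. Metabolic enzymes were also present: Aass, of lysine breakdown, fell by 2.82 ± 0.07, the hydroxysteroid dehydrogenase Hsd17b14 by 2.60 ± 0.11, Slc27a2, a fatty acid transporter and acyl-CoA synthetase, by 2.49 ± 0.07, and Pipox, a peroxisomal sarcosine oxidase, by 2.44 ± 0.08. The homeobox gene Uncx fell by 2.46 ± 0.09.

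**Figure D1:**
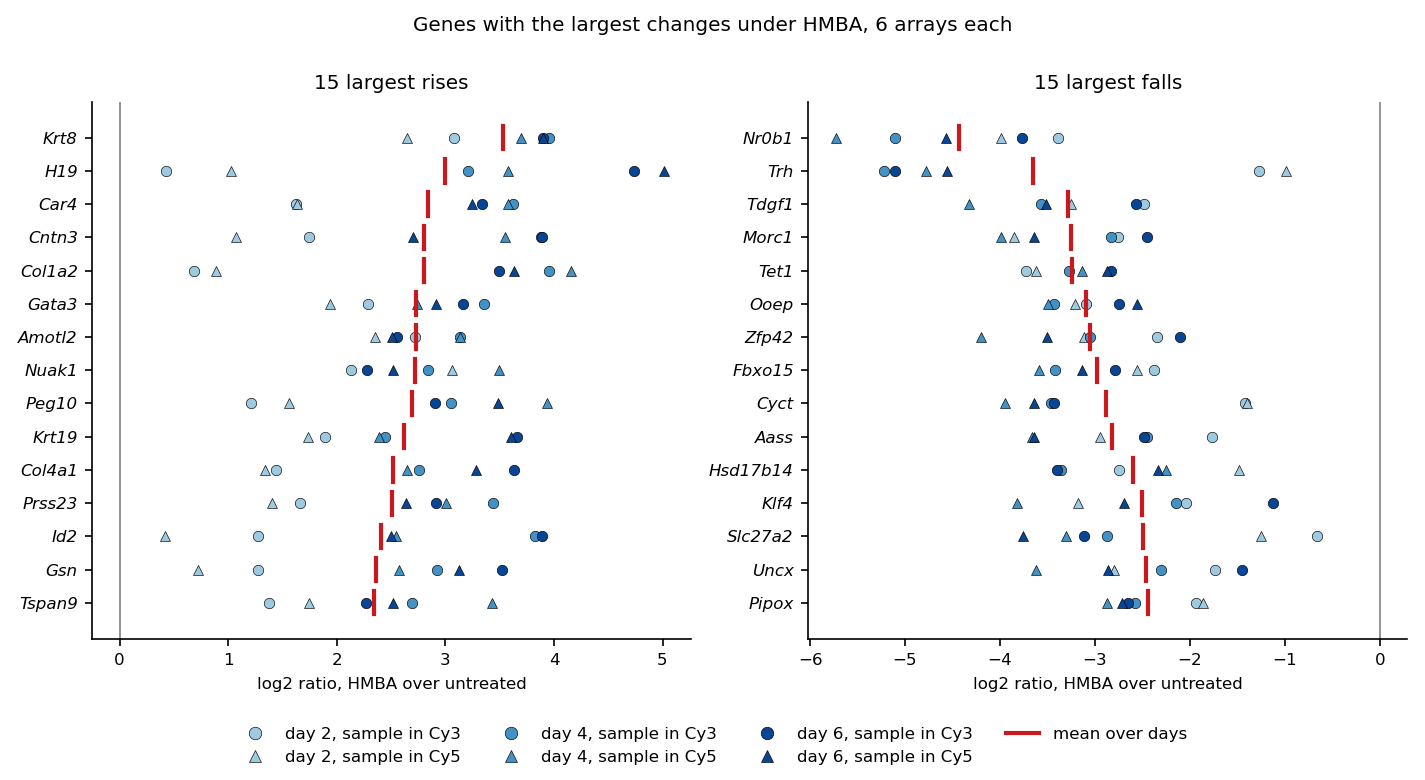
Log2 ratios of HMBA-treated over untreated cells for the 15 largest mean rises and the 15 largest mean falls, with a point for each of the 6 arrays (day by shade of blue; circle for Cy3, triangle for Cy5) and a red line at the mean over days. Krt8 has the highest mean (3.53) and Nr0b1 the lowest (-4.43), and for H19, Col1a2 and Trh the day 2 arrays lie nearest to 0.

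Among 35 measured pluripotency genes, 31 fell and 1 rose (Lin28a, 0.58 ± 0.12 on 4 arrays), with a median of -1.36 against 0.003 over all genes. For this list and each list below, the shares of all genes over the days together are 27.4% higher and 25.5% lower. The same list had 24 members lower on day 2, 30 on day 4 and 30 on day 6, where 10.7%, 16.5% and 18.6% of all genes were lower. Pou5f1 itself was late. Its ratios were 0.10 and -0.38 on day 2, -1.78 and -2.32 on day 4, and -2.0 and -2.44 on day 6. The day 2 arrays lay on either side of 0 and did not overlap with the later ones: the day 2 mean of -0.14 had an adjusted p of 0.6, and the day 6 mean was -2.22 (adjusted p = 1e-08, limma). Nanog was already low on day 2, with -1.50 and -0.83, then -1.85 and -1.45 on day 4, and -1.61 and -1.12 on day 6. It fell by 1.40 ± 0.07 over the 3 days, with all 6 arrays low and the days overlapping. Sox2 ratios were -0.42 and -1.43, then -0.74 and -2.12, then -1.12 and -2.35. The dye orientations of Sox2 differed by more than the days did, and its mean was -1.36 ± 0.09 (adjusted p = 1.2e-09, limma).

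The other members differed in when they fell, and are grouped here after their values were seen. Klf4, Fgf4 (the growth factor through which stem cells activate ERK), the orphan receptors Nr5a2 and Esrrb, and the small stem cell proteins Dppa5a, Dppa2 and Dppa3 had day 2 means of -2.61, -1.94, -2.09, -1.55, -2.44, -2.07 and -1.80, each past the test. Utf1, Phc1, Rif1, Sall4 and Trim28, which act on chromatin or transcription, had day 2 means of -0.32, -0.01, -0.10, 0.08 and 0.00 that did not pass, and day 6 means of -1.78, -2.30, -1.26, -1.10 and -0.83 that did. Tbx3, a T-box factor downstream of LIF, went the other way, from -1.23 on day 2 to -0.08 on day 6. Klf2, another Kruppel-like factor, was at -0.10 ± 0.08 (adjusted p = 0.3), Nacc1 at -0.05 and Zfp281 at 0.01 over the days.

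Trophectoderm genes differed between the days. Of 21 measured, 11 rose and 3 fell over the days together (median 0.56). On day 2, 6 were higher and 2 lower (median -0.14; 13.2% of all genes higher), and on day 6, 14 were higher and 2 lower (median 1.86; 18.4% higher). Between day 2 and day 6, 14 of the 21 rose and 0 fell, against 5.13% of all genes rising and 6.16% falling. Krt7, a partner keratin of simple epithelia, was at 0.77 and 0.78 on day 2, 2.33 and 2.22 on day 4, and 3.53 and 3.31 on day 6. Rhox6, an X-linked homeobox gene of placenta, was at -0.09 and -0.65, then 1.14 and 0.39, then 4.47 and 3.76. Both rose step by step, and the days did not overlap.

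The placental homeobox genes Rhox9 and Esx1 and the zinc-finger factor Gata2 were also high on day 6, with means of 3.17, 3.31 and 3.03. Rhox9, with day 2 and day 4 means of -0.33 and 0.32, passed the test on day 6 alone. Esx1 and Gata2 each lacked 1 array. Plac1, an X-linked placental gene, was at -0.13 and -0.75 on day 2, 0.11 and -0.70 on day 4, and 2.74 and 2.06 on day 6. It was high on day 6 alone of the 3 days measured. Tfap2c, an AP-2 factor, and Plet1, a surface protein of placental progenitors, were below untreated cells on days 2 and 4 (-0.52 and -0.40, and -1.30 and -1.36) and above them on day 6 (1.21 and 1.00), each past the test. Eomes, a T-box factor of trophoblast stem cells, fell by 0.69 ± 0.07. Tead4 fell by its most complete probe (-0.67 ± 0.11) while a second probe was called higher (0.42).

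Cdx2, the caudal factor that specifies trophectoderm, did not pass the test on the two-colour arrays, with ratios between -0.32 and 0.31 and a mean of -0.08 ± 0.10 (adjusted p = 0.5). Krt18, the usual partner of Krt8, lay between -0.32 and 0.15, and the growth factor gene Igf2 between -0.35 and 0.25, with means of -0.08 and 0.04. Each of these 3 genes is read by a single two-colour probe, and on the RNAi arrays they were higher after Pou5f1 RNAi by 2.34, 5.90 and 6.32. Whether these two-colour probes report their genes was not tested.

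**Figure D2:**
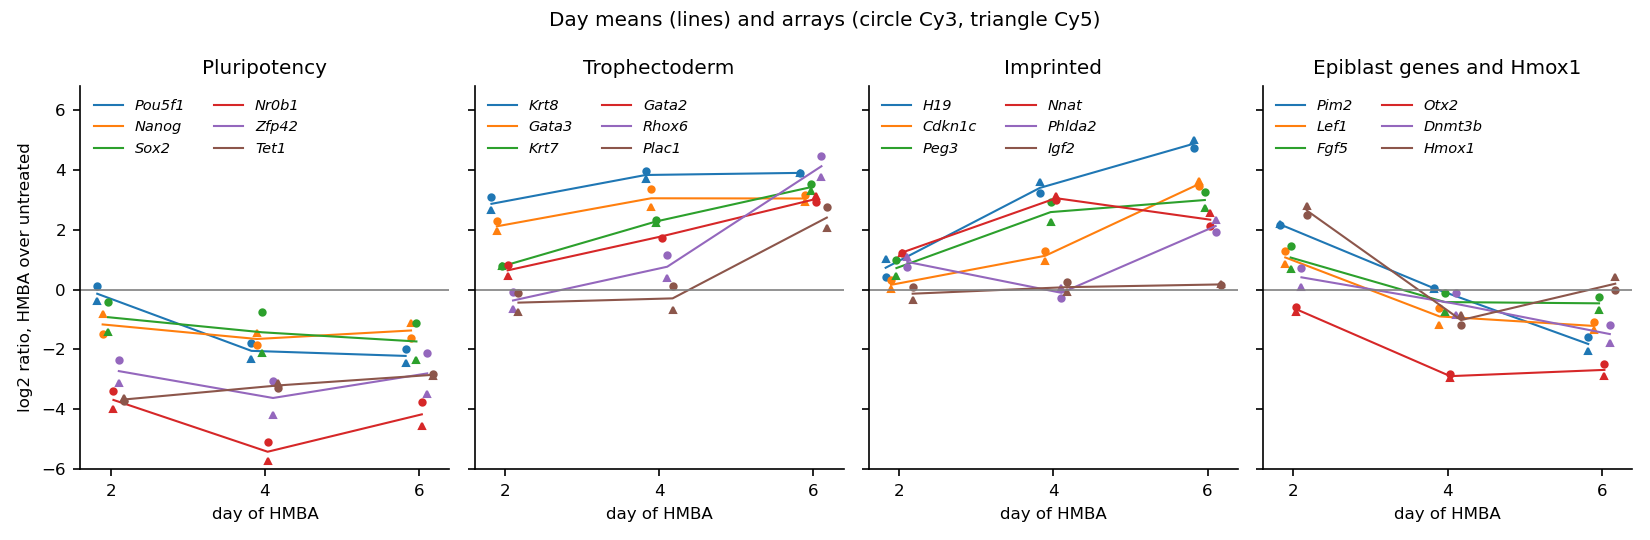
Log2 ratios of HMBA-treated over untreated cells on days 2, 4 and 6 for 6 genes in each of 4 panels (pluripotency; trophectoderm; imprinted; epiblast and Hmox1), with circles for Cy3 arrays, triangles for Cy5 arrays and a line through the day means. Rhox6 and Plac1 are highest on day 6 (Rhox6 at a mean of 4.12), Pou5f1 leaves 0 after day 2, H19 and Cdkn1c climb with time, and Pim2 and Hmox1 are highest on day 2.

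Of 27 primitive endoderm genes measured, 13 rose and 4 fell (median 0.09). The members that rose included genes of matrix and secreted proteins: Col4a1 and Col4a2, the chains of basement membrane collagen (2.52 and 1.93), Sparc, a matrix-binding glycoprotein (1.95), Dkk1, a Wnt antagonist (1.82), and the collagen chaperone Serpinh1 (1.36). Cited1, a transcriptional co-activator, rose by 3.02 ± 0.10 on 5 arrays. Among the defining transcription factors, Gata4 was at 0.46 and 0.12, 0.46 and -0.09, and 0.63 and -0.26, with the 2 dyes apart on each day and a mean of 0.22 ± 0.08 (adjusted p = 0.03). Sox7, Foxa2 and Hnf4a had means of 0.06, -0.07 and -0.12, and the visceral endoderm proteins Afp and Ttr 0.09 and 0.05, none past the test. Dab2, an endocytic adaptor of endoderm, rose by 0.68, though a second probe of it was at -0.01. Apoe fell, with 0.22 and 0.11 on day 2, -1.0 and -1.30 on day 4, and -2.34 and -2.61 on day 6.

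Of 22 basement membrane genes, 17 rose and 2 fell (median 0.69). Besides the collagens, Hspg2, the heparan sulfate proteoglycan perlecan, rose by 1.45 ± 0.12, the laminin receptors Dag1 and Itga3 by 1.43 ± 0.07 and 1.46 ± 0.08, and Agrn, agrin, by 1.20 ± 0.09. The laminin chains went both ways, with Lamb1 up by 0.86 and Lama1 at -0.66, both called. Of 20 fibroblast and interstitial matrix genes, 11 rose and 3 fell (median 0.29). Col1a1 ratios were 0.08 and 0.49 on day 2, 1.84 and 2.73 on day 4, and 1.02 and 1.46 on day 6, highest on day 4 like those of Col1a2. Vim, the mesenchymal intermediate filament protein, rose by 1.15 ± 0.08 and the galectin Lgals1 by 1.78 ± 0.09. Col3a1 and Fn1 were at 0.02 and 0.03, and Thy1, a fibroblast surface marker, at -0.13, none past the test.

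Genes of the actin cytoskeleton and of smooth muscle rose early. Of 27 measured, 23 rose and 2 fell over the days (median 0.52). On day 2, 21 were higher (median 0.97), on day 4, 19 (0.72), and on day 6, 11 (0.25). Of all genes, 13.2%, 20.9% and 18.4% were higher on these days. Between day 2 and day 6, 10 of the 27 fell and 2 rose, where 6.16% and 5.13% of all genes did. Tagln, the smooth muscle actin-binding protein transgelin, was at 1.99 and 2.15 on day 2, 1.65 and 1.99 on day 4, and -0.19 and 0.02 on day 6. Its day 6 arrays lay on either side of 0. Acta2, smooth muscle actin, was at 1.99 and 1.94, then 3.19 and 3.14, then 1.07 and 0.63, with its peak on day 4. Cnn1, calponin, went from 1.82 and 1.21 on day 2 to 0.14 and -0.66 on day 6.

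Of the tropomyosin genes on the list, Tpm1 and Tpm2 were measured, and both were high on days 4 and 6. Tpm1 ratios were 2.14 and 1.41, 2.90 and 2.47, and 2.81 and 1.83, a rise of 2.26 ± 0.08 over the days, and Tpm2 rose by 1.37 ± 0.07. Nonmuscle myosin Myh9 rose by 1.22 ± 0.10, the actinin Actn1 by 1.08 ± 0.08, and Lmna, the nuclear lamin of differentiated cells, by 1.07 ± 0.08. The filamin gene Flna fell by 0.58 on its most complete probe, while a second probe was at 0.06 and did not pass. Srf, the serum response factor that drives many actin genes through CArG boxes, was at 1.24 and 0.82 on day 2, 0.10 and -0.38 on day 4, and -0.40 and -0.60 on day 6. It was higher on day 2 (1.03, past the test) and not over the days together (0.13 ± 0.12, adjusted p = 0.39).

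Because CArG boxes are the usual mark of this gene group, the 250 bases before the start of each gene were searched for them on both strands. The RefSeq promoter table (GRCm38.p6) had a window for 24 of the 27 genes, and Tagln was among those without a window. A box was counted only in its strict form: CC, then 6 bases that are each A or T, then GG. Boxes with a C or G among the 6 inner bases were not searched for. Also searched were the TATA motif TATAAA, the GC box motif GGGCGG, the octamer ATGCAAAT, the AP-1 motif TGACTCA and the TEAD motif GGAATG, which can overlap the end of a CArG box. A CArG box stood in 6 of the 24 windows (25%), in 378 of 27025 windows in the table (1.4%) and in 119 of the 9420 windows of tested genes (1.26%). TATAAA stood in 3 of the 24 (12.5%; 13% of the table), GGGCGG in 18 (75%; 32.9% of the table and 53% of tested genes), GGAATG in 9 (37.5%; 12.6%), ATGCAAAT in 1 (4.17%; 1.61%) and TGACTCA in 0 (4.43%). The stretches around the 6 matches are shown because they carry the box that the list was searched for, and are given 5′ to 3′ on the gene's strand with the box in capitals.
Vcl, vinculin, chr14:20929148-20929210, plus strand: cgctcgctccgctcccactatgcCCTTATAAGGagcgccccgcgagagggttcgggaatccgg
Cnn2, calponin 2, chr10:79988514-79988583, plus strand: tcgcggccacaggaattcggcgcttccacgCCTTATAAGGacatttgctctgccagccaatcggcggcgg
Actc1, cardiac actin, chr2:114052883-114052952, minus strand: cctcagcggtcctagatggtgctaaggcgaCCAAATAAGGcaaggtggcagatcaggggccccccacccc
Myl9, myosin light chain, chr2:156775273-156775342, plus strand: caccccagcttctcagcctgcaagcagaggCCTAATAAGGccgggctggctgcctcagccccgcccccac
Acta1, skeletal actin, chr8:123894809-123894878, minus strand: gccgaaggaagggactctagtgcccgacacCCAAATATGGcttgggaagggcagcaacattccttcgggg
Srf, serum response factor, chr17:46556185-46556274, minus strand: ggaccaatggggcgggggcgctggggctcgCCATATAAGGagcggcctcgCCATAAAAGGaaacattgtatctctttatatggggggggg

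Vcl and Cnn2 carry the same box, and both were higher on every array, with Cnn2 at 1.36 and 1.48 on day 2, 0.73 and 1.03 on day 4, and 0.43 and 0.60 on day 6. Actc1 went from 1.16 and 1.68 on day 2 to 0.50 and 0.06 on day 6, and Myl9 from 1.04 and 0.69 to 0.31 and -0.49. Each of the 6 genes was higher on day 2 past the test (means 1.05, 1.42, 1.42, 0.86, 0.52 and 1.03 in the order shown; Vcl lacked 1 array of day 4). On day 2, 21 of the 27 genes of the list were higher, as were 13.2% of all genes. Over the days together, the 6 genes with a box had means from 0.13 (Srf) to 0.94 (Cnn2). The largest means among the 24 genes were those of Tpm1, Acta2, Csrp1 and Tpm2 (2.26, 1.99, 1.58 and 1.37). These had no box of the strict form in the window, and whether they carry a variant box was not searched. A match is a description of these letters only, and a bearing of the box on the response was not tested.

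**Figure D3:**
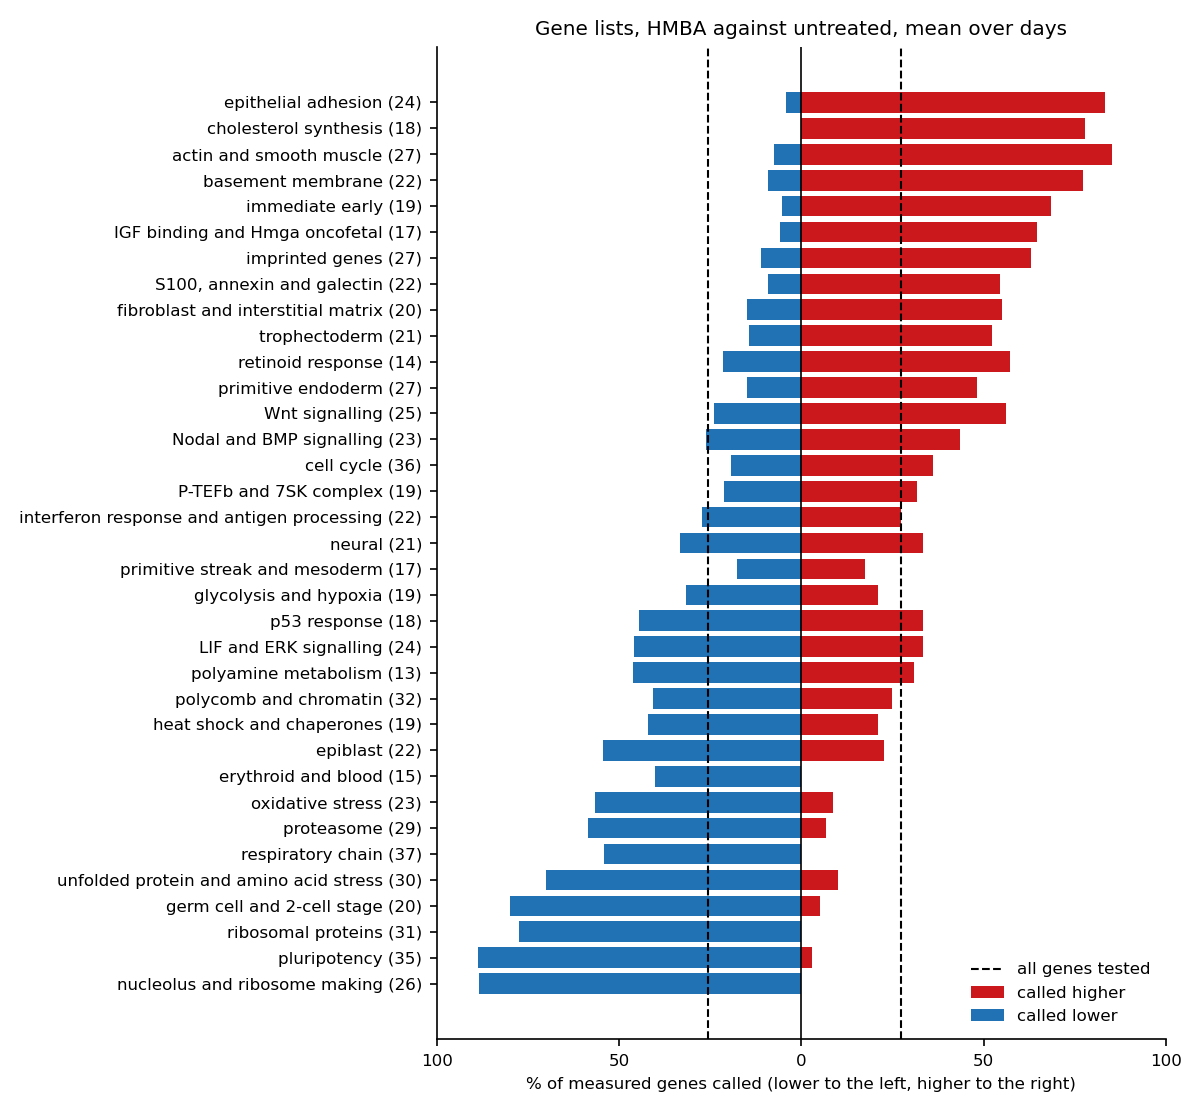
Percent of the measured genes of each list that were called higher (red, to the right) or lower (blue, to the left) with HMBA over the 3 days, with the number measured beside the name and dashed lines at the shares of all genes tested (27.4% and 25.5%). The actin and smooth muscle, epithelial and cholesterol lists lie at the top with mostly higher calls, and the nucleolar and pluripotency lists at the bottom with mostly lower ones.

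Of 24 epithelial junction genes, 20 rose and 1 fell over the days together (median 0.83), and the day medians were 0.80, 0.84 and 0.80. Cldn6, an embryonic claudin of tight junctions, was at 2.54 and 2.58 on day 2, 1.86 and 2.11 on day 4, and 1.30 and 1.57 on day 6. It was high throughout, with day 2 the highest. The desmosomal genes Dsc2 and Dsp rose by 1.89 ± 0.11 and 1.79 ± 0.12, and the tight junction scaffold Tjp1 by 1.00 ± 0.10. Both classical cadherins rose, Cdh1 (E-cadherin) with 1.38 and 1.42 on day 2, 0.66 and 0.93 on day 4, and 0.48 and 0.61 on day 6, and Cdh2 (N-cadherin) by 1.64 ± 0.09. The member that fell was the epithelial splicing factor Esrp1 (-0.25).

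Of 22 S100, annexin and galectin genes, 12 rose and 2 fell (median 0.33). The annexins, which bind membranes in the presence of calcium, led: Anxa2 rose by 2.01 ± 0.08, Anxa3 by 1.89 ± 0.07 and Anxa5 by 1.45 ± 0.10, while Anxa8 fell (-1.06, 4 arrays). S100a6, a small calcium-binding protein, was at 1.10 and 0.83 on day 2, 2.68 and 2.52 on day 4, and 1.42 and 1.59 on day 6. Lgals3 was lower on days 2 and 4 (-0.53 and -0.93) and higher on day 6 (1.00). Of 17 genes of IGF binding and the oncofetal Hmga and Lin28 group, 11 rose and 1 fell (median 0.47), led by the insulin receptor substrate Irs2 (2.23 ± 0.08), the IGF-binding protein Igfbp4 (1.82 ± 0.08) and the chromatin protein Hmga2 (1.60 ± 0.09).

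Imprinted genes, which are expressed from the copy of a single parent and many of which act in placenta and fetal growth, rose more often than they fell. Of 27 measured, 17 rose and 3 fell (median 0.52). Cdkn1c, the cyclin-dependent kinase inhibitor p57, was at 0.30 and 0.01 on day 2, 1.30 and 0.96 on day 4, and 3.44 and 3.62 on day 6, with no overlap between days. Nnat, neuronatin, rose by 2.21 ± 0.08 with its peak on day 4, and the zinc-finger gene Peg3 by 2.10 ± 0.11. Mest, a hydrolase-like protein, and Dlk1, a Notch-like ligand, rose by 1.01 ± 0.09 and 0.73 ± 0.07, each more on day 6 (1.75 and 1.57). Snrpn fell over the days (-0.37), from 0.72 on day 2 to -1.10 on day 6, both past the test. Igf2, which shares its imprinted domain with H19, is described above.

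Genes of the post-implantation epiblast mark the next stage of the embryo proper. Of 22 measured, 9 were higher and 4 lower on day 2 (median 0.12), where 13.2% and 10.7% of all genes were, and 2 were higher and 16 lower on day 6 (median -0.83), where 18.4% and 18.6% were. From day 2 to day 6, 14 fell and 0 rose, where 6.16% and 5.13% of all genes did. Pim2, a serine/threonine kinase, was at 2.17 and 2.19 on day 2, 0.07 and 0.02 on day 4, and -1.59 and -2.05 on day 6, so that its mean over the days was 0.13. Fgf5, the growth factor that marks this stage, was at 1.45 and 0.69, then -0.10 and -0.74, then -0.25 and -0.67. Lef1, a Wnt-responsive factor, went from 1.28 and 0.86 to -1.09 and -1.35. For each of the 3, the day 2 arrays were the highest and did not overlap with the later ones. Otx2, an early epiblast and anterior homeobox gene, was low already on day 2 (-0.58 and -0.74) and at -2.48 and -2.89 on day 6, and the de novo methylation genes Dnmt3b and Dnmt3l had day 6 means of -1.49 and -2.44.

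Mesoderm and neural genes showed no common direction. Of 17 primitive streak and mesoderm genes, 3 rose (17.6%) and 3 fell (17.6%), where 27.4% and 25.5% of all genes did (median 0.00). Gsc, Kdr and Meox1 were at -0.02, 0.00 and -0.04, none called. Foxf1, a factor of extraembryonic and lateral mesoderm, was up by 0.88 ± 0.09. Of 21 neural genes, 7 rose (33.3%) and 7 fell (33.3%), with a median of 0.09. Rtn1, a reticulon of neurons, rose by 1.75 ± 0.13 and Sox11 by 1.34 ± 0.09, though 1 of the other 2 Sox11 probes was at -0.06; the eye and forebrain factor Pax6 fell by 0.80 ± 0.08 and the neurofilament-like Ina by 1.26 ± 0.08. Nes, nestin, was at 2.07 and 1.42 on day 2 and at -0.08 and -0.30 on day 6. Sox1, the marker of neural progenitors, was at 0.24 ± 0.11 (adjusted p = 0.07).

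HMBA is known for the erythroid programme, and of 15 erythroid and blood genes measured here, 0 rose and 6 fell (median -0.22). The erythroid master factors Gata1 and Klf1 were at -0.27 (4 arrays) and -0.17 (5 arrays), Alas2, the first enzyme of erythroid haem synthesis, at -0.10 and Epor, the erythropoietin receptor, at -0.02, none past the test. The members that fell included the proto-oncogenes Myb (-1.28, 5 arrays) and Kit (-0.70) and the transferrin receptor Tfrc (-0.92; a second probe was called higher at 0.21). The adult globin Hba-a1 fell slightly (-0.27), and its probe may also read the other globin copies.

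Of 19 genes of P-TEFb, the 7SK complex and their partners, the machinery on which HMBA acts, 6 rose (31.6%) and 4 fell (21.1%), shares near those of all genes (27.4% and 25.5%), with a median of 0.06. The kinase Cdk9 was at 0.16 ± 0.08 and its cyclin Ccnt1 at 0.20 ± 0.08, neither past the test, and the elongation factor Supt5 rose by 0.52 ± 0.08. Larp7, which stabilises 7SK RNA, fell by 0.21 ± 0.07. Brd2, a bromodomain reader of acetylated histones, was at 1.45 and 1.25 on day 2, 0.16 and -0.12 on day 4, and 0.04 and 0.01 on day 6. It was the member that stood out on day 2 and had returned to 0 by day 4. Hexim1 was not analysed on the two-colour arrays; in vector cells it stood at a mean log2 level of 8.31 on the RNAi arrays. Of 13 genes of polyamine metabolism, 4 rose and 6 fell (median -0.18), with Oaz2, an antizyme that lowers polyamine synthesis, up by 1.11 ± 0.10 and Srm, spermidine synthase, down (-1.08 ± 0.08).

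Of 23 Nodal and BMP genes, 10 rose (43.5%) and 6 fell (26.1%), with a median of 0.17. Of the Nodal pathway genes, Tdgf1, Gdf3, Lefty1 and Nodal were at -3.29, -2.32, -1.38 and -0.86, all called. Of the genes known as BMP targets, Id1, Id2 and Id3 rose by 1.32, 2.41 and 1.88, and Msx2 by 1.86, with Id3 at 0.89 and 0.81 on day 2, 2.56 and 2.74 on day 4, and 2.09 and 2.16 on day 6. The ligands Bmp2 and Bmp7 did not pass (-0.17 and -0.13), and Bmp4 fell by 0.38, through day 2 (-1.06). These members were picked and grouped after their values were seen.

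Of 25 Wnt genes, 14 rose (56%) and 6 fell (24%), where 27.4% and 25.5% of all genes did (median 0.29). Dkk1 was at -0.09 and 0.11 on day 2, 2.55 and 2.90 on day 4, and 2.71 and 2.76 on day 6, near 0 on day 2 and high on both later days. Axin2, the feedback target of β-catenin, rose by 0.87 ± 0.08, the kinase Gsk3b by 1.09 ± 0.07 and the ligand Wnt6 by 1.17 ± 0.12 (5 arrays). Of 24 LIF and ERK genes, 8 rose (33.3%) and 11 fell (45.8%), with a median of -0.11. The STAT3 targets Bcl3 and Socs3 fell by 1.68 ± 0.08 and 1.26 ± 0.07 and were low from day 2 on, with Bcl3 between -1.86 and -1.35 on all 6 arrays. The ERK feedback genes Spry4 and Etv5 fell by 1.60 and 1.62, while Dusp4, an ERK phosphatase, went from 1.41 and 1.62 on day 2 to -0.62 and -0.76 on day 6. The receptors Fgfr1 and Fgfr2 rose by 1.52 and 1.23.

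Of 14 retinoid response genes, 8 rose and 3 fell (median 0.31), with no retinoic acid added, per the labels. The receptor gene Rarb rose by 1.89 ± 0.12 on its most complete probe and was at 0.06 on another, which did not pass; the retinoic acid-binding protein gene Crabp2 rose by 1.80 ± 0.13 and the homeobox gene Meis1 by 1.73 ± 0.09. Stra8, a retinoic acid target of the germline, was at -0.15 ± 0.09. Of 19 immediate early genes, 13 rose and 1 fell (median 0.34), among them the matricellular genes Ccn1 and Ccn2, known YAP targets (1.49 and 1.20), Klf6 (1.48 ± 0.10) and Fos (1.27 ± 0.10). Fos was higher later, from 0.30 and 0.94 on day 2 to 2.06 and 2.01 on day 6. Myc was at 1.17 and 0.55, then -0.64 and -1.21, then 0.60 and -0.05, crossing 0 from day to day.

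Of 26 nucleolar genes, which serve ribosome making, 0 rose and 23 fell (median -0.60). On day 2, 5 were lower, on day 4, 22, and on day 6, 24, where 10.7%, 16.5% and 18.6% of all genes were. Nhp2, a box H/ACA ribonucleoprotein, was at -0.60 and -0.94 on day 2, -1.44 and -1.76 on day 4, and -1.62 and -1.87 on day 6. Ubtf, an RNA polymerase I factor, fell by 1.14 ± 0.08, and Ebna1bp2 by 1.12 ± 0.07. Of 31 ribosomal protein genes, 0 rose and 24 fell (median -0.52), each by little, the largest being Rpl30 at -1.04 ± 0.08. Such probes can also read processed pseudogene copies.

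Of 37 respiratory chain genes, 0 rose and 20 fell (median -0.24), and of 29 proteasome genes, 2 rose and 17 fell (median -0.24). Of 30 genes of the unfolded protein and amino acid stress responses, 3 rose and 21 fell (median -0.40), led by the cysteine-making enzyme Cth, at -1.21 and -1.43 on day 2, -2.14 and -2.40 on day 4, and -2.98 and -2.45 on day 6. The serine pathway genes Psat1 and Mthfd2 fell by 1.04 ± 0.07 and 0.78 ± 0.07. Of 19 heat shock genes, 4 rose and 8 fell (median -0.15), and the small chaperone Cryab rose by 1.56 ± 0.09. Of 23 oxidative stress genes, 2 rose and 13 fell (median -0.25). Hmox1, haem oxygenase, was at 2.49 and 2.79 on day 2, -1.20 and -0.84 on day 4, and -0.03 and 0.42 on day 6, a high value at the first time alone.

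Cholesterol synthesis genes moved the other way. Of 18 measured, 14 rose and 0 fell (median 0.58), with a peak on day 4, when 14 were higher (20.9% of all genes were) at a median of 0.94. Sc5d, a late desaturase of the pathway, was at 0.90 and 0.46, 1.48 and 1.57, and 1.33 and 1.26. Srebf2, the transcription factor of the pathway, rose by 1.04 ± 0.09 and Dhcr7, its last reductase, by 0.85 ± 0.07. Of 19 glycolysis and hypoxia genes, 4 rose (21.1%) and 6 fell (31.6%), where 27.4% and 25.5% of all genes did (median -0.05). Ndrg1 was at 0.38 and -0.21 on day 2 and at 3.05 and 2.89 on day 6.

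Of 36 cell cycle genes, 13 rose (36.1%) and 7 fell (19.4%), where 27.4% and 25.5% of all genes did (median 0.05). Ccnd1, cyclin D1, fell by 2.03 ± 0.08, with all 6 arrays between -2.41 and -1.44, while the mitotic genes Cdk1, Aurka and Top2a were at 0.14, -0.03 and -0.09, none called. The inhibitor genes Cdkn1c and Cdkn2b rose by 1.61 and 0.83, and Cdkn1a, the p53 target p21, was at 0.01. Of 18 p53 response genes, 6 rose (33.3%) and 8 fell (44.4%), with a median of -0.11. Pmaip1, the apoptosis gene Noxa, was at 1.64 and 0.90 on day 2 and at -0.77 and -1.42 on day 6.

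Of 20 germ cell and 2-cell-stage genes, 16 fell and 1 rose (median -0.65). Hormad1, a meiotic chromosome axis protein, was at -2.41 and -3.03 on day 2, -3.56 and -4.42 on day 4, and -2.88 on the single day 6 array that holds it. The meiotic and germ cell genes Sycp3, Dazl and Piwil2 fell by 1.83, 1.52 and 1.28. Of 32 polycomb and chromatin genes, 8 rose (25%) and 13 fell (40.6%), with a median of -0.11. Among those that fell, besides Tet1, were Eed and Jarid2 of PRC2 (-1.59 and -1.32) and the demethylases Kdm3a and Kdm5b (-1.49 and -1.14); PRC2's other core genes Ezh2 and Suz12 were at -0.09 and -0.19, neither called. The PRC1 genes Ring1 and Phc2 rose by 0.93 and 0.76. Of 22 interferon and antigen processing genes, 6 rose (27.3%) and 6 fell (27.3%), near the shares of all genes (27.4% and 25.5%), with a median of 0.03. The class I gene H2-D1 was up by 1.41 ± 0.07 and Ifitm1 and Ifitm3 were down (-1.82 and -1.68). Related copies of these genes may share probes.

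Between day 2 and day 6 of HMBA, 1358 genes differed (11.3%), 617 higher on day 6 (5.13%) and 741 lower (6.16%). The largest differences upward were those of Rhox6 (4.48 ± 0.18), H19 (4.15), Smim7, a small membrane protein (3.57), Rhox9 (3.50) and Nrk, an X-linked kinase of placenta (3.42). Smim7 was at 0.52 and 0.22 on day 2 and at 3.92 and 3.96 on day 6. Downward they were those of Pim2 (-4.0), Trh (-3.71), Noct, the deadenylase-like nocturnin (-2.89), Gstt2, a glutathione transferase (-2.66), and Apoe (-2.64). Noct was at 1.86 and 1.35 on day 2 and at -0.87 and -1.70 on day 6, above and then below untreated cells.

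Because DMSO-treated cells were measured against the same reference, HMBA and DMSO values are given side by side and only their difference is tested. The difference passed for 1367 genes (11.4%), 787 higher with HMBA (6.54%) and 580 lower (4.82%). This count rests on the spread between single arrays. By probes, 57% of the differences were higher with HMBA, 51.1% with only probes that had 18 values, and 49% when each array was centred on its mode in place of its median. The larger share of higher calls thus depended on the processing. With the 2 dyes of a day averaged and the 3 days taken as replicates, 0 of 15314 probes passed (limma, smallest adjusted p = 0.065), with 1235 at an unadjusted p under 0.05 (8.06%). The differences below are therefore larger than the spread between arrays of a day but not, after adjustment, than the spread between days.

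Among the genes higher with HMBA, Phlda2, an imprinted regulator of placental growth, differed most, at 0.98 with HMBA and -1.25 with DMSO (difference 2.23 ± 0.13, adjusted p = 5.1e-09, limma). Peg10 stood at 2.69 against 0.49, Gsn at 2.36 against 0.17, Krt8 at 3.53 against 1.36 and Id2 at 2.41 against 0.26. All 5 were thus higher than in untreated cells with HMBA, and Phlda2 lower with DMSO. In the other direction Pim2 stood at 0.13 against 2.04 (difference -1.91 ± 0.12), Slc27a2 at -2.49 against -0.91, Otx2 at -2.08 against -0.53, Lef1 at -0.35 against 1.07 and Foxh1, a Nodal pathway factor, at -0.68 against 0.70 (-0.62 against 0.75 on a second probe). By list, 13 of the 21 trophectoderm genes were higher with HMBA than with DMSO and 1 lower. Of the 22 epiblast genes, 13 were lower and 2 higher, and of the 22 S100, annexin and galectin genes, 12 were higher and 0 lower. Of the 35 pluripotency genes, 7 were higher and 5 lower. Dppa5a, Klf4 and Klf5 were less reduced with HMBA (differences 1.34, 1.14 and 1.06), and Phc1 and Pou5f1 more (-1.07 and -0.85). Set against RA in place of DMSO, 6 trophectoderm genes were higher with HMBA and 6 lower. In the same order, the counts against RA were 5 and 6 for epiblast, 4 and 4 for S100, annexin and galectin, and 2 and 15 for pluripotency genes. Of all genes, 6.54% were higher and 4.82% lower than with DMSO, and 6.36% and 10.6% than with RA.

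Against RA, 2036 genes differed (16.9%), 765 higher with HMBA (6.36%) and 1271 lower (10.6%). By probes 43.5% of the differences were higher with HMBA, and 31.9% when each array was centred on its mode in place of its median. With the days taken as replicates, 269 probes passed (2268, or 14.8%, at an unadjusted p under 0.05). The 5 named genes higher with HMBA were each below untreated cells with RA. The cytokine receptor Il13ra2 stood at 0.22 with HMBA and -2.49 with RA (difference 2.71 ± 0.12), Nts, neurotensin, at 0.14 and -2.19, Pim2 at 0.13 and -1.96, Fam53b at 0.12 and -1.72, and the small GTPase Arf6 at 0.67 and -0.98. With the days taken as replicates the difference of Pim2 did not pass (adjusted p = 0.3, limma).

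The 5 named genes lower with HMBA were each above untreated cells with RA. Tcstv1, a gene of the 2-cell stage, stood at -1.43 with HMBA and 3.41 with RA (difference -4.84 ± 0.12, adjusted p = 7.3e-15, limma), the phosphodiesterase gene Pde11a at -0.65 and 2.44, Wdr7 at -0.34 and 2.50, the interleukin-11 receptor copy Il11ra2 at -0.13 and 2.65, and Stra8 at -0.15 and 2.56. Il11ra2 has near-identical copies, so its probe may read more than 1 gene. Of the 20 germ cell and 2-cell-stage genes, 14 were lower with HMBA than with RA and 1 higher, and of the 27 primitive endoderm genes, 14 were lower and 2 higher, among them Lama1 (-0.66 against 1.70) and Gata4 (0.22 against 0.95).

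**Figure D4:**
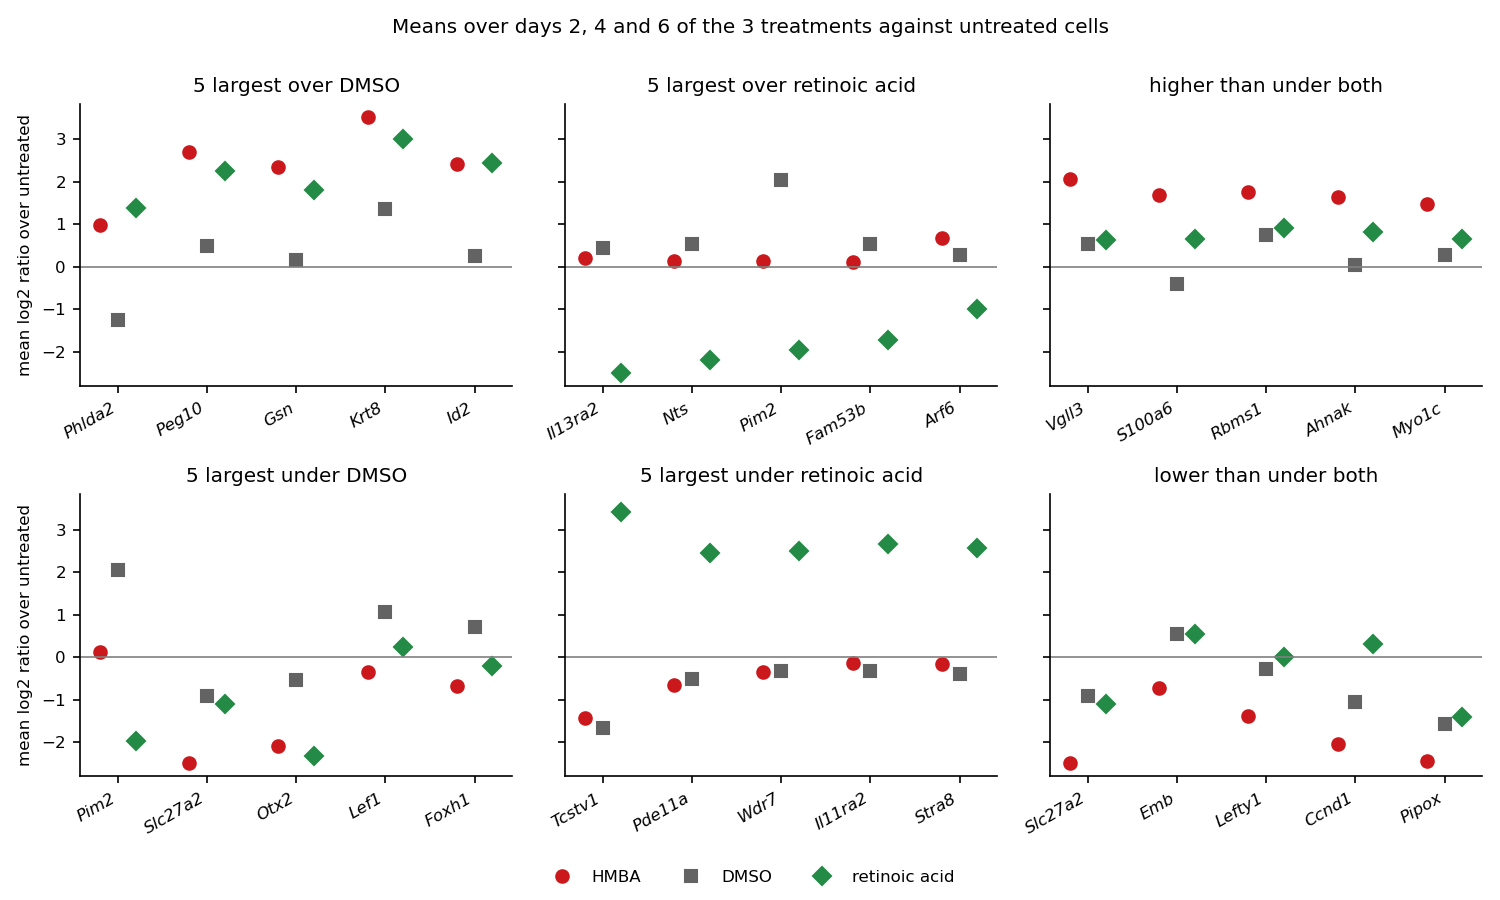
Mean log2 ratio over days 2, 4 and 6 with HMBA, DMSO and RA for the genes named for a difference between treatments, each against the same untreated reference, with a circle for HMBA, a square for DMSO and a diamond for RA. Vgll3 and S100a6 are highest and Ccnd1 lowest with HMBA, and Tcstv1 is above 0 with RA alone (3.41).

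In 126 genes (1.05%) HMBA was higher than untreated cells, DMSO and RA alike, and in 137 genes (1.14%) lower than all 3. Vgll3, a co-factor of TEAD transcription factors, was at 1.28 and 1.33 on day 2, 2.59 and 2.40 on day 4, and 2.54 and 2.21 on day 6, with a mean of 2.06 ± 0.09 against 0.55 with DMSO and 0.63 with RA. S100a6 had means of 1.69, -0.41 and 0.66 in that order, Rbms1, an RNA-binding protein, 1.77, 0.74 and 0.90, Ahnak, a large scaffold protein, 1.65, 0.05 and 0.82, and Myo1c, an unconventional myosin, 1.48, 0.28 and 0.65. The other 2 probes of Ahnak had HMBA means of 2.00 and 0.83.

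Ccnd1 was at -1.44 and -2.13 on day 2, -1.90 and -2.37 on day 4, and -1.93 and -2.41 on day 6, with a mean of -2.03 ± 0.08 against -1.05 with DMSO and 0.30 with RA. It was low on every HMBA array. Lefty1, a Nodal antagonist, had means of -1.38, -0.27 and 0.00, Emb, the adhesion protein embigin, -0.72, 0.55 and 0.56, Slc27a2 -2.49, -0.91 and -1.10, and Pipox -2.44, -1.58 and -1.40. With the days taken as replicates none of these 10 differences from DMSO passed, and those from RA passed for Vgll3 and Ccnd1 alone of the 10. Without the dye term, those of Emb and Rbms1 from DMSO and from RA did not pass.

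The RNAi arrays share no sample with the HMBA arrays, so the response to HMBA can be set beside that to loss of Pou5f1 or Nanog; the Pou5f1 and Nanog comparisons share their vector controls. After Pou5f1 RNAi 20.6% of 18193 genes were higher and 19.5% lower, and after Nanog RNAi 12.1% and 8.77%. Of the 402 genes measured on both platforms that rose by at least 1 with HMBA, 75.9% were higher and 4.98% lower after Pou5f1 RNAi, where 24.9% and 23.2% of all 11037 shared genes were. Of the 260 that fell by at least 1, 84.2% were lower and 3.85% higher. After Nanog RNAi the same genes were higher in 40.3% and lower in 7.21% of the first set, and lower in 41.9% and higher in 15.8% of the second, where 14.8% of all shared genes were higher and 11% lower. Across 11030 genes the HMBA mean correlated with the Pou5f1 RNAi difference at r = 0.564 (rho = 0.507) and with the Nanog RNAi difference at r = 0.249 (rho = 0.2), as a description across genes, which are not independent replicates.

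Single genes show both likeness and difference. Rhox6 rose by 7.29 after Pou5f1 RNAi and 1.56 after Nanog RNAi, and Krt7 by 6.15 and 1.00, on their log2 scales. Krt8 rose by 6.10 and 2.80, and Vgll3 by 4.88 and 3.14. Other genes high with HMBA did not pass as higher: Col1a2 was at 0.18 after Pou5f1 RNAi (adjusted p = 0.3, limma), Cntn3 at 0.09 and Smim7 at -0.14, neither past the test, and Crabp1, a retinoic acid-binding protein with a day 6 HMBA mean of 2.14, fell by 1.39. Of the genes low with HMBA, Nr0b1, Trh and Aass fell by 3.35, 3.64 and 4.50 after Pou5f1 RNAi, while Uncx was at -0.04 and did not pass. Ratios on the two-colour arrays and differences on the RNAi arrays come from different platforms, so their sizes are not compared.

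**Figure D5:**
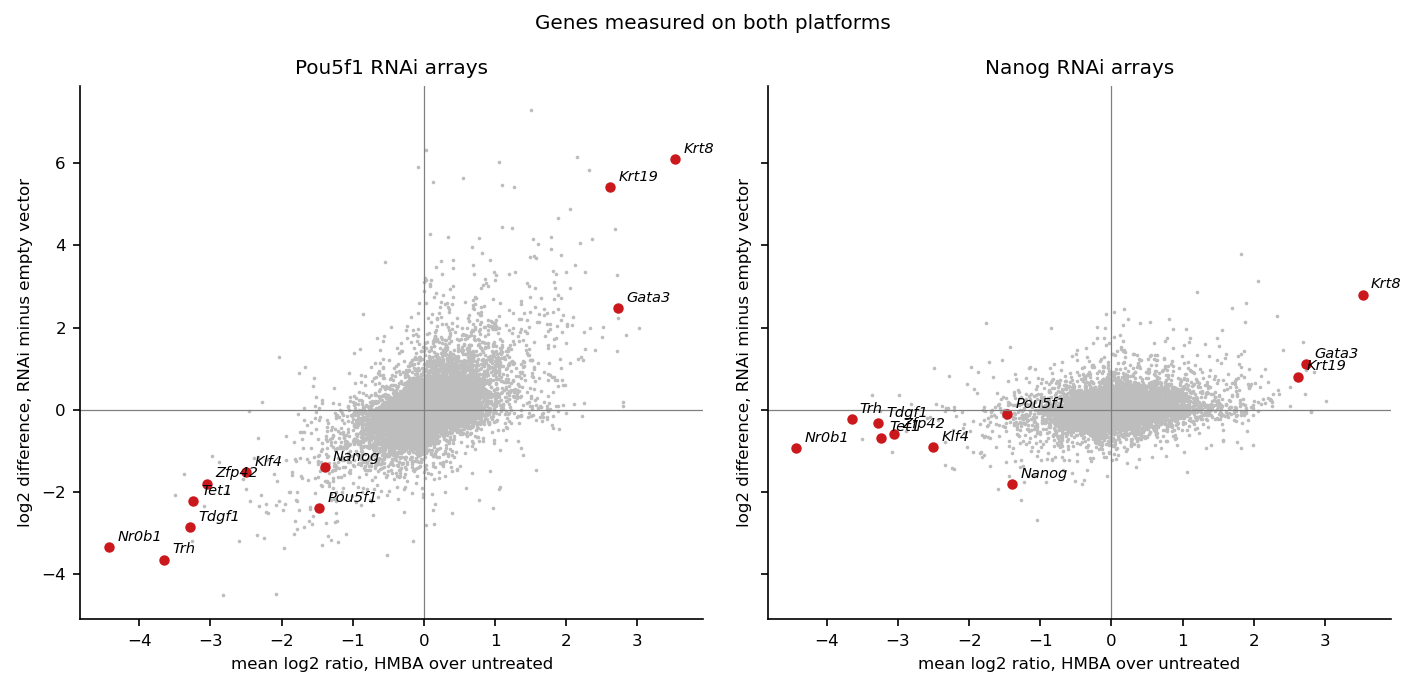
Mean log2 ratio with HMBA (x axis) against the log2 difference after Pou5f1 RNAi or Nanog RNAi over vector (y axis), with 1 grey point for each gene measured on both platforms and 11 genes marked in red, among them Krt8, Gata3, Nr0b1, Trh, Pou5f1 and Nanog. Across 11030 genes r is 0.564 for Pou5f1 and 0.249 for Nanog, and Krt8 lies at the upper right of both panels and Nr0b1 at the lower left.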

How the data were processed

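Per the labels, the authors hybridised labelled cDNA of treated and untreated cells to custom two-colour arrays and deposited log ratios already turned to sample over reference on every array; the log base, background correction and normalization are not given in the sources used here. The values were analysed as log2. The authors deposited the RNAi arrays as log2 values made with RMA, per the submitters' processing notes. Probe names came from GEO's platform annotation: of 16657 tested probes, which have a value in every treatment and day, 13392 had 1 gene name, 87 several and 3178 none, giving 12034 genes, each read by its most complete probe. Probe sequences and positions were not used here.

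The model held 9 treatment-day means and 1 dye term (replicate number is dye orientation) over all 18 arrays, by least squares that allow for missing values, with variances moderated by limma 3.58.1 in R 4.3.3. It was called at a Benjamini-Hochberg adjusted p under 0.05 over all tested probes. The HMBA mean weights days equally, which 16640 probes allowed. Deviations from group means correlated in all 36 same-number pairs (r = 0.465 to 0.912), so the dye term was kept. The RNAi arrays (45037 probe sets, 18193 genes) were fitted over all 14 arrays with no block; 5 of 13 same-number pairs exceeded r = 0.1. On simulated ratios, 74 of 100 probes changed by 0.5 and all 100 changed by 1 were recovered, with 7 false calls among 16640. The simulated residuals were independent between arrays, and each change was the same on every HMBA day. Spread between days or cultures and error of the shared reference were left out, so the error rate of the real calls was not tested.

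Named genes are, among called genes with 1 name that is no clone or predicted name, the 15 largest mean rises and falls with 6 values of the same sign, and 5 each way for other comparisons with values on all arrays concerned (for genes apart from both DMSO and RA, by the smaller of the 2 differences), plus Pou5f1, Nanog, Sox2 and Hexim1. From each list come the called members of smallest p and its defining members; further list members were chosen after their values were seen. The members and all 35 gene lists were chosen with earlier results of these data known. Figures used matplotlib 3.10.9 in Python 3.11.15. Alternatives were no dye term, other array sets, filters, scalings and left-out arrays or days. No array intensities were used, so precision is limited by the number of arrays.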

Additional observations from a re-analysis of the deposited data

Results flagged for a closer look

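The HMBA effects on days 2 and 6 differed, by limma's test of the difference, for 39 of the genes named by rule. Of all genes, 11.3% passed that test. The genes Rhox6, H19, Smim7, Rhox9, Nrk, Pim2, Trh, Noct, Gstt2 and Apoe were named for this difference among called genes. Their passing thus followed from the rule, though H19, Pim2 and Trh were also named by other rules. Most named genes were picked for large effects, so the 39 are not compared with the share of all genes. No named gene had 1 array of the 6 standing apart from the rest. Day 6 minus day 2, on the log2 scale, was positive for Rhox6 (4.48), H19 (4.15), Smim7 (3.57), Rhox9 (3.50), Nrk (3.42), Col1a2 (2.77), Id2 (2.35), Gsn (2.32), Col4a1 (2.07), Cntn3 (1.88), Krt19 (1.82), Peg10 (1.81), Car4 (1.66), Prss23 (1.24), Il11ra2 (1.30), Phlda2 (1.20), Vgll3 (1.07), Krt8 (1.03), Gata3 (0.93), Tspan9 (0.83), Fam53b (0.75) and Rbms1 (0.75). It was negative for Pim2 (-4.0), Trh (-3.71), Noct (-2.89), Gstt2 (-2.66), Apoe (-2.64), Foxh1 (-2.50), Slc27a2 (-2.48), Lef1 (-2.29), Cyct (-2.13), Pou5f1 (-2.08), Otx2 (-2.03), Lefty1 (-1.69), Emb (-1.65), Sox2 (-0.81), Pipox (-0.79) and Aass (-0.70). Tet1 had a positive difference (0.82), with its fall largest on day 2.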

How the results depend on the processing

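Counts here are probes. Without the dye term (the replicate block), 4137 probes passed for the HMBA mean (7964 with it), 830 on day 2 (3545), 2126 on day 4 (5535), 2055 on day 6 (5473), 246 for day 6 minus day 2 (1671), 212 for any difference between days (HMBA days 2, 4 and 6 differ; 1712), 242 for HMBA minus DMSO (1609) and 546 for HMBA minus RA (2742). With only the HMBA arrays in the fit, 6743 passed on day 2 and 4422 for day 6 minus day 2. With dye pairs averaged and days as replicates, 4770 passed for the mean, 0 for HMBA minus DMSO and 269 for HMBA minus RA. Without all HMBA arrays of day 4 or of day 6, HMBA minus DMSO gave 986 and 773. Without the sparse DMSO array, day 4 replicate 2, an alternative chosen after seeing the data, HMBA minus DMSO gave 1481. Leaving out 1 array at a time gave 6545 to 7298 for the mean, 1276 to 3304 on day 2 (1276 and 2125 without its own replicate 1 and 2), 3008 to 5433 on day 4 (3008 and 3022 without its own), 2934 to 5377 on day 6 (2934 and 3157 without its own), 708 to 1431 for day 6 minus day 2 (781 and 921 without day 2 replicate 1 and 2, 820 and 708 without those of day 6), 1031 to 1296 for HMBA minus DMSO (1031 without day 4 replicate 1, 1043 without day 6 replicate 1), 1862 to 2559 for HMBA minus RA, 12748 to 14764 for Pou5f1 RNAi and 6160 to 7181 for Nanog RNAi. An array left out leaves its day with a single array, assumed to vary like the others. The replicate block on the RNAi arrays moved no count by over 1.5 times. Of 82 results on named genes, 78 kept their call without the dye term and 4 did not; of 68 that could be fitted with days as replicates, 40 kept it and 28 did not; none changed sign under any alternative run, and no other alternative lost a call. The causes of these changes were not tested, beyond the fewer values that the left-out arrays and averaged pairs leave.

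The limits are the log base, taken as 2, the missing spread of the untreated reference, the unknown source of the paired arrays, the dye effects, and ratios without intensities, so that faint probes could not be told from bright ones.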
